A study of Macaca fascicularis with 6 samples.

Results

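ITLN1, the gene of intelectin-1, was followed through single-cell RNA-seq libraries of cynomolgus monkey lung as 1 row of 28623 genes (ENSMFAG00000034188), found by its symbol, with its UMI counts read in every cell class of both conditions. A UMI marks 1 captured RNA molecule, and levels are given as CPM, a gene's UMIs scaled to a common UMI total of the cells summed. The gene was selected on its UMI counts across cell classes in these same libraries, so its levels are a description and carry no test.

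Intelectin-1, also called omentin, is a secreted calcium-dependent lectin that binds sugars on the surface of microbes, among them galactofuranose, and it has been described as a receptor for lactoferrin. It is known as a product of the mesothelium (the cell layer lining the pleura and the omentum) and of goblet cells of gut and airway, where interleukin-13 is known to induce it. That link to type 2 inflammation is why the gene is of interest in asthma models. In the RefSeq annotation of another assembly of this species, ITLN1 lies next to CD244, the gene of a lymphocyte receptor.

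The lungs came from male monkeys of 3 to 5 years. The 3 control monkeys (replicates 1, 2 and 3) were labelled normal and received saline in place of antigen, and the 3 asthma monkeys (replicates 8, 10 and 11) were sensitized by injection of Ascaris suum antigen with adjuvant and then challenged with the antigen through the nose. Each monkey gave 1 droplet library. The libraries held 5268 to 6964 barcodes and 29014556 to 41489879 UMIs each, 35133 barcodes in all, of which 24235 passed the study's limits on genes, UMIs and mitochondrial share. Of the barcode sequences, 137 occurred in more than 1 library, and 75 did so among the cells kept.

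Cells were clustered without ITLN1, and classes were named from marker lists. The class that carried ITLN1 was led by MSLN, PRG4, PLA2G2A and UPK3B. The study called cells of this kind mesenchymal, but the markers matched mesothelium: 15 of the 18 mesothelial markers measured stood at least 2-fold above other cells and were present in at least 10% of the cells. The exceptions were KRT7, CDH2 and CALB2 (calretinin), which had 0 UMIs here. The 622 cells of this class are called mesothelial-like. The mesothelial marker list summed to 13855 CPM in them, with MSLN (mesothelin) the most abundant at 3624 CPM. Markers of fibroblasts summed to 2438 CPM, with DCN at 1437 CPM, while T and NK markers summed to 18.9 CPM and goblet markers to 2.30 CPM.

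ITLN1 was the most abundant RNA of mesothelial-like cells in all 6 libraries. Its level was 66527, 64312 and 50653 CPM in control replicates 1, 2 and 3. In asthma replicates 8, 10 and 11 the level was 57235, 60853 and 54326 CPM. The asthma libraries all fell within the range of the control libraries. No mesothelial-like cell lacked an ITLN1 UMI, 0 of 622 cells. Over the 6 libraries the level was 58984 ± 6049 CPM (SD, n = 6).

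No other named class came near this level. Epithelial-like cells had the next highest mean, 171 ± 303 CPM (SD, n = 6), which is 344-fold lower. Granulocyte-like cells followed at 131 ± 113 CPM and monocyte-like cells at 52.6 ± 61.6 CPM. Below the mesothelial-like cells the order had little meaning, because the library values of neighbouring classes overlapped throughout. Mast-like cells (48.8 CPM in 2 libraries), T and NK-like cells (40.7 ± 39.5 CPM), stromal-like cells (40.6 ± 38.6 CPM) and B and plasma-like cells (28.2 ± 29.0 CPM) came next. Macrophage-like cells were at 23.1 ± 26.0 CPM and dendritic-like cells at 8.49 ± 10.7 CPM (n = 5). The lowest mesothelial-like library, at 50653 CPM, stood far above the highest library of any other named class. That was the epithelial-like cells of asthma replicate 8, at 784 CPM. They included 1 cell, called a doublet, with 570 ITLN1 UMIs, which raised both this value and the mean of the class. The 3114 cells without a name are not ranked: they include the mixed clusters first named mesothelial and were at 1827 ± 1307 CPM (130 to 3926 CPM by library).

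**Figure D1:**
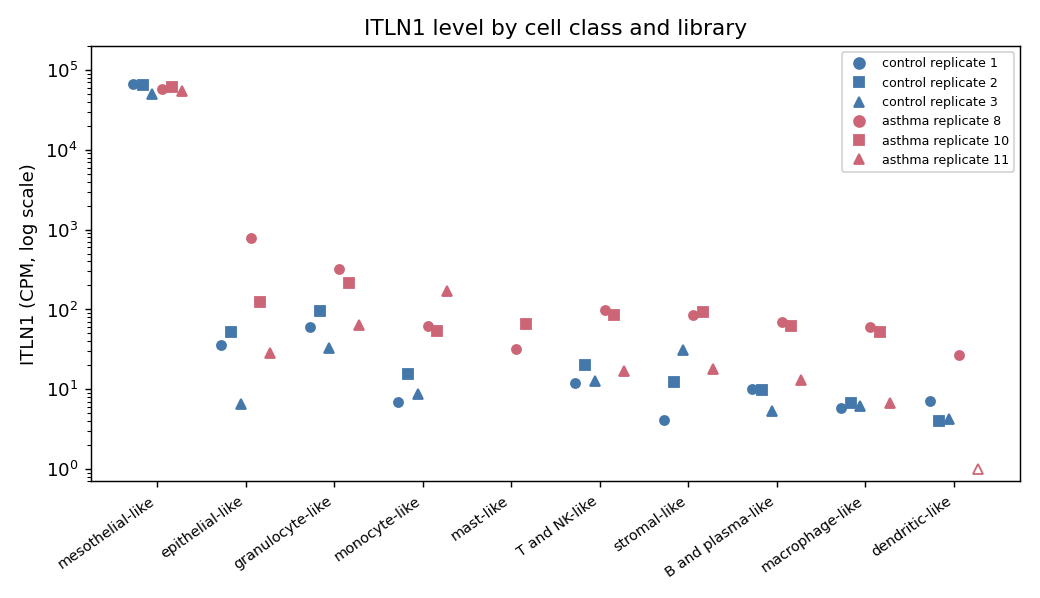
ITLN1 level (CPM, log axis) in each cell class, in order of the mean over libraries. Each point is 1 library with at least 10 cells of the class, blue for control and red for asthma, and the open symbol drawn at 1 CPM is a library with 0 UMIs. All 6 libraries put mesothelial-like cells between 50653 and 66527 CPM, and no other named class passed 784 CPM. Cells without a name are not drawn.

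Depth differed between these classes. Granulocyte-like cells had a median of 1004 UMIs and 0.165 ITLN1 UMIs per cell, and T and NK-like cells had a median of 3660 UMIs and 0.162 ITLN1 UMIs per cell. The higher CPM of granulocyte-like cells was thus reached with nearly the same number of ITLN1 molecules in a shallower cell. In monocyte-like cells a single cell of asthma replicate 11 held 77 of that library's 83 ITLN1 UMIs.

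Mesothelial-like cells were 2.57% of all cells and held 88.6% of the ITLN1 UMIs of the cells kept. Their share of a library's ITLN1 UMIs was 80.5%, 70.5% and 86.2% in control replicates 1, 2 and 3. It was 90.7%, 92.9% and 88.8% in asthma replicates 8, 10 and 11. Most of the remainder lay in clusters that were first named mesothelial and then left out because they also carried markers of another class. With those clusters the share was 98.2%, which left 7849 of 432516 ITLN1 UMIs for all other cells. Outside the mesothelial clusters only 2 cells had at least 1% of their UMIs from ITLN1.

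The clusters left out fell unevenly over the libraries. They took 135 of the 166 cells first named mesothelial in control replicate 1, and between 9.09% and 24.6% in each of the other 5 libraries. Of one such cluster of 96 cells, led by CLEC3B, PGC, CHIT1 and MRC1 and at 22163 ITLN1 CPM, 91 cells came from control replicate 1. With these clusters kept, the ITLN1 level of control replicate 1 was 40050 CPM in place of 66527 CPM.

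Within mesothelial-like cells ITLN1 varied less than 2-fold of its median in most cells. It made up a median of 5.36% of a cell's UMIs, with the central 80% of cells between 2.69% and 8.78%. Control replicates 1, 2 and 3 had library medians of 6.24%, 5.52% and 4.35%. For asthma replicates 8, 10 and 11 they were 5.29%, 5.66% and 4.61%, inside the control range. The lowest cell had 0.0559% and the highest 15.2%. Only 8 of 622 cells were under 1%, and 35 were over 10%. The values formed 1 continuous spread in each library, with no separate group of cells lacking the RNA.

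**Figure D2:**
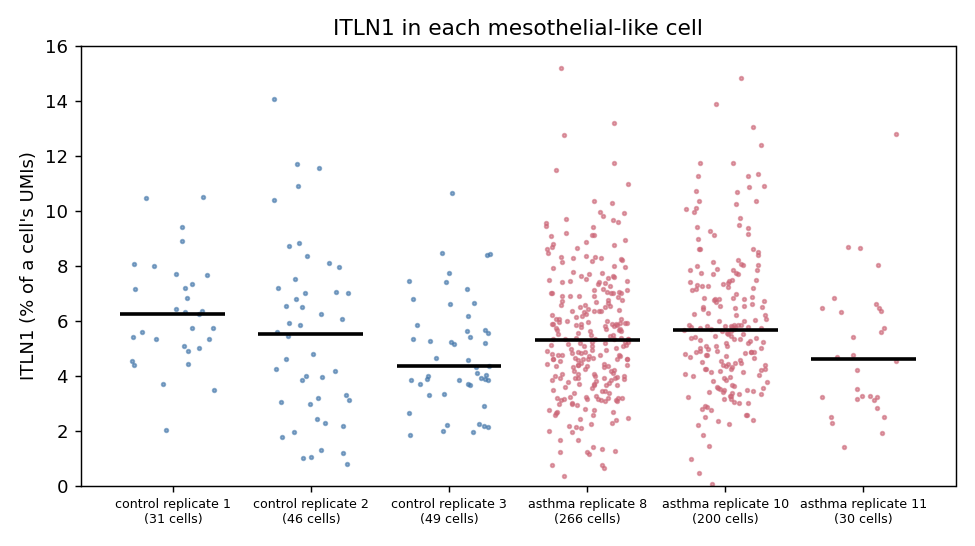
Share of each mesothelial-like cell's UMIs that came from ITLN1 (percent), by library. Each point is 1 cell, blue for control and red for asthma, and black lines are library medians, which ran from 4.35% to 6.24%. The points spread as 1 continuous cloud in every library, with few cells close to 0.

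Sub-clusters of the class differed modestly in ITLN1. The 180 cells of sub-cluster 0, led by CRHBP, ASB9 and MFGE8, were at 64494 CPM, and the 175 cells of sub-cluster 1, led by CPXM2, PRPS2 and TPPP3, at 64689 CPM. The 100 cells of sub-cluster 3, led by the immediate-early genes NR4A1 and EGR1 with AREG and IL6, were at 56623 CPM, and 86 of them came from asthma replicate 10. The 167 cells of sub-cluster 2, led by C7, CSRP2 and CXCL10, were lowest at 48727 CPM. Its leading genes also included SFTPD, SFTPC and SLC34A2, genes of alveolar type 2 cells, and 123 of its cells came from asthma replicate 8. Alveolar type 2 markers summed to 1019 CPM in the mesothelial-like cells of asthma replicate 8 and to 32.2 to 399 CPM in the other libraries. Their part in the lower ITLN1 level was not tested.

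Against the rest of the transcriptome, ITLN1 stood apart. The next RNA was a mitochondrial gene (ENSMFAG00000000004) at 29212 ± 4888 CPM. TIMP1, an inhibitor of matrix metalloproteinases, was the highest nuclear gene after it at 11629 ± 3181 CPM, and C3, the central complement component, was at 6331 ± 1656 CPM. ITLN1 was thus 5.07-fold above TIMP1 and 9.32-fold above C3 on the CPM scale. The libraries count molecules at their 3′ ends, so these levels do not grow with transcript length.

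Other mesothelial genes were lower still. KRT19, a keratin of simple epithelia, was at 3792 ± 794 CPM, and MSLN at 3366 ± 637 CPM. PRG4, which encodes the lubricant lubricin, was at 2588 ± 803 CPM, and UPK3B, a uroplakin, at 1604 ± 458 CPM. WT1, a transcription factor of the mesothelial lineage, was at 165 ± 27.1 CPM. ITLN1 exceeded these by 15.6-fold for KRT19 to 358-fold for WT1.

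Among the soluble lectins and pattern-binding proteins that were measured, mesothelial-like cells expressed mainly ITLN1. Of 24 such genes listed, 18 were found in the files. LGALS1 (galectin-1), LGALS9, SFTPA1, SFTPA2, FCN1 and FCN2 were not among them, so their levels are not known here. COLEC12, a scavenger receptor with a collectin domain, was the highest of these at 354 ± 115 CPM, followed by LGALS3 (galectin-3) at 265 ± 78.2 CPM and LGALS3BP, its binding protein, at 87.5 ± 22.7 CPM. ITLN2, the paralog of ITLN1 (ENSMFAG00000034751), had 13 UMIs in all mesothelial-like cells, 1.51 ± 2.04 CPM. Reads that fit both paralogs could not be assigned to either, so the exact level of ITLN2 is uncertain. REG3A, REG3G, MBL2, ZG16 and DMBT1 had 0 UMIs there.

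**Figure D3:**
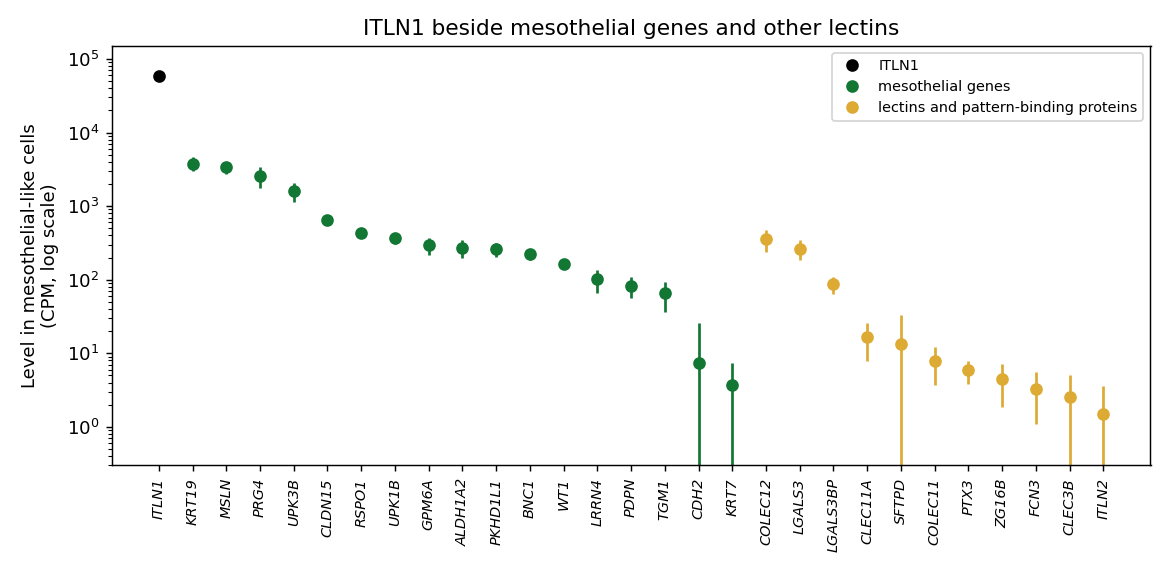
Levels in mesothelial-like cells (CPM, log axis) of ITLN1, of the mesothelial genes measured above 0 and of the lectins and pattern-binding proteins with at least 10 UMIs. Points are means and lines SD over 6 libraries, and lines that reach the lower edge extend to or below 0.3 CPM. ITLN1 at 58984 CPM lies above KRT19 at 3792 CPM, the highest of the other genes drawn, and above COLEC12 at 354 CPM, the highest of the other lectins.

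Goblet cells are the other known source of the protein, and 14 goblet and mucous genes were found in the files. MUC5B (a gel-forming mucin), CLCA1, TFF1, TFF3, ERN2 and FOXA3 had 0 UMIs in the 622 cells, and SPDEF, the goblet cell transcription factor, had 4. Other members of the list were present: CREB3L1, a transcription factor of secretory cells, was at 122 ± 33.8 CPM with UMIs in 52.4% of cells. TSPAN8 (a tetraspanin) was at 29.8 ± 29.2 CPM in 26.5% of cells and MUC1 (a membrane mucin) at 14.2 ± 7.33 CPM in 9.32%. Among genes of the type 2 response, IL13RA1, a receptor chain of interleukin-13, was at 139 ± 40.5 CPM. STAT6, which carries the signal of interleukins 4 and 13, was at 36.9 ± 13.2 CPM, and IL4R at 8.02 ± 1.75 CPM. LTF, which encodes lactoferrin, had 1 UMI in mesothelial-like cells.

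The genes most like ITLN1 across classes were all highest in mesothelial-like cells. Over 55 sums of a class in a library, log2 CPM of ITLN1 had its highest Pearson correlations, among 11783 genes, with UPK3B (0.91), SLC7A4 (0.91), NXPH2 (0.90), BNC1 (0.90) and FYB2 (0.90). LRRN4, MSLN, NEFL, TNNT1 and PRG4 completed the first 10, the last at 0.89. UPK3B, BNC1, LRRN4, MSLN and PRG4 are also on the marker list that named mesothelial-like cells, so their rank lends no support to that name. The sums share libraries, depth and free RNA, so these correlations describe only where the genes are found.

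Across single mesothelial-like cells TIMP1 was most like ITLN1, with a mean correlation over the 6 libraries of 0.53, followed by MSLN at 0.50 and CST3 (cystatin C) at 0.48. CD81, IGFBP7, CLTB, SERPINF1, CST6, BCAM and PTGDS followed, down to 0.41. The least alike were the mitochondrial genes ND3 at -0.24 and ND2 at -0.23. The cells of a library share depth and free RNA. ITLN1's own log level rose with a cell's UMI total, with correlations of 0.17 to 0.46 by library, and its correlation with the mitochondrial share lay between -0.54 and 0.11.

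The comparison of asthma with control asked whether the gene changed with the disease model. Per mesothelial-like cell it showed no shift beyond the spread of the libraries. The mean was 60497 ± 8597 CPM over control libraries and 57471 ± 3270 CPM over asthma libraries (SD, n = 3 each), a log2 ratio of -0.07. Its sign turned with the set of cells, to 0.21 with the mixed clusters kept and to 0.01 with a mitochondrial maximum of 10%. Under rescaling it stayed negative, at -0.18 with library sizes scaled by TMM.

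In whole libraries ITLN1 varied far more. It stood at 990, 1446 and 998 CPM in control replicates 1, 2 and 3. In asthma replicates 8, 10 and 11 it was 6184, 4197 and 513 CPM. Asthma replicates 8 and 10 lay above every control library, and asthma replicate 11 lay below every control library, so the groups overlapped. The means were 1145 ± 261 CPM over control libraries and 3631 ± 2877 CPM over asthma libraries, a log2 ratio of 1.67 that fell to 1.04 without asthma replicate 8.

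The number of mesothelial-like cells followed the same order at its upper end. They made up 0.714%, 1.44% and 1.26% of the cells of control replicates 1, 2 and 3 (31, 46 and 49 cells). In asthma replicates 8, 10 and 11 they were 6.43%, 4.33% and 0.743% (266, 200 and 30 cells). The share was 2.70 percentage points higher in asthma, a difference that did not pass a two-sided exact permutation test (p = 0.3, n = 3 each, where the smallest p possible is 0.1). The difference was 1.40 points without asthma replicate 8 and 4.24 without asthma replicate 11. With the mixed clusters kept, control replicate 1 rose from 0.714% to 3.83% and the difference was 1.78 points. Lowering the mitochondrial limit to 10% gave 1.46 points. Asthma replicate 11 lay within the control range, or below every control library with the mixed clusters kept (0.817%). The amount of pleura in each piece of lung was not recorded in the labels, and its part in these shares was not tested.

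**Figure D4:**
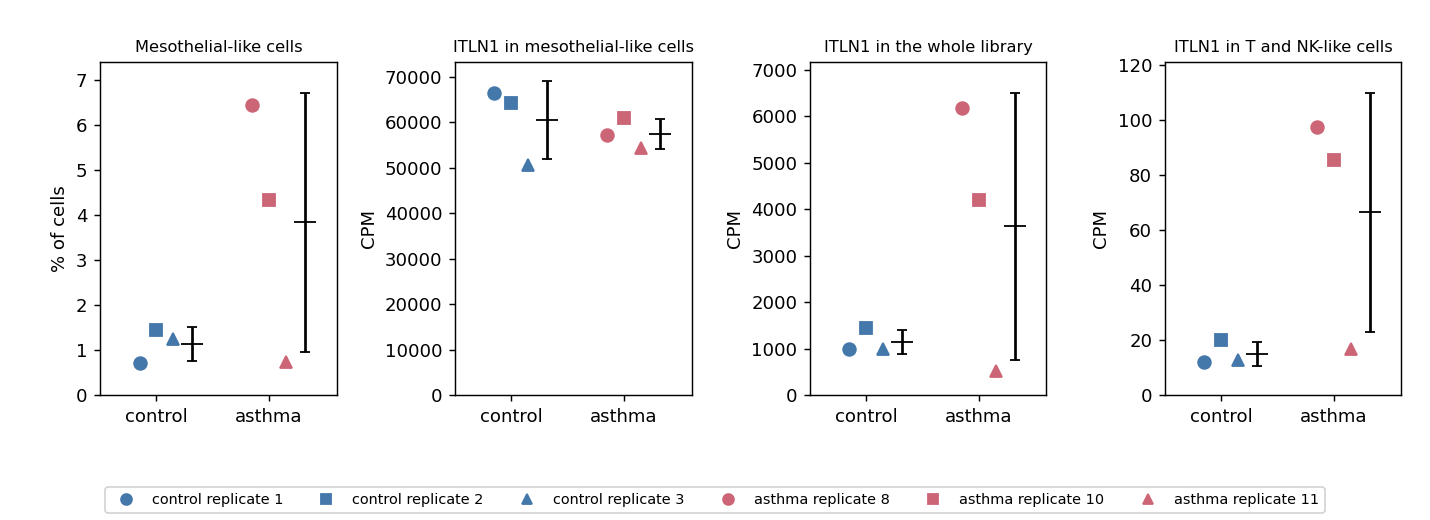
From left to right, the share of mesothelial-like cells (percent of cells), the ITLN1 level (CPM) in mesothelial-like cells, in all cells of a library and in T and NK-like cells. Each symbol is 1 library, and black marks show the mean and SD of 3 libraries per group. Asthma replicates 8 and 10 are high in all panels except that of mesothelial-like cells, where the asthma libraries (54326 to 60853 CPM) lie inside the range of the control libraries (50653 to 66527 CPM).

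The study's upper limit of 5000 genes per cell removed many cells rich in ITLN1. The 696 barcodes with at least 5000 genes held 342464 ITLN1 UMIs, or 43.7% of the 783620 in all barcodes. Among them, 165 barcodes had at least 1% ITLN1, with a median of 5.68% ITLN1 and 34082 UMIs, against 5.36% and 9838.5 UMIs in the mesothelial-like cells kept. They also carried MSLN at 3190 CPM and UPK3B at 1177 CPM, and little PTPRC (CD45, the leukocyte marker) at 48.6 CPM or SFTPC at 32.1 CPM. By library, 4, 5 and 6 of them came from control replicates 1, 2 and 3, and 76, 73 and 1 from asthma replicates 8, 10 and 11. Doublets among them were not assessed.

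Counted over all deposited barcodes, ITLN1 stood at 1069, 1443 and 1174 CPM in control replicates 1, 2 and 3. It reached 8717 and 6726 CPM in asthma replicates 8 and 10, and 566 CPM in asthma replicate 11. The log2 ratio of the means was 2.12, against 1.67 in the cells kept. All limits on barcodes were lifted together here, so the part of the upper gene limit alone in this ratio was not tested. Barcodes with 500 or fewer genes held 0.245% of all ITLN1 UMIs, and those left out for a mitochondrial share over 25% held 0.858%.

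T and NK-like cells, which should lack the gene, served as the measure of free ITLN1 RNA in the droplets. Control replicates 1, 2 and 3 had 12.1, 19.99 and 12.7 CPM there. Their level was 97.3, 85.3 and 16.8 CPM in asthma replicates 8, 10 and 11. The 2 libraries with most ITLN1 overall thus had most of it in T and NK-like cells, where the level was between 1.23% and 3.27% of that of the whole library. A UMI was seen in 29.2% and 24.9% of T and NK-like cells of asthma replicates 8 and 10 and in 4.32% to 8.45% elsewhere, and no such cell held more than 6. Macrophage-like cells showed the same split, with 60.9 and 52.0 CPM in asthma replicates 8 and 10 and 5.80 to 6.77 CPM in the other libraries. They were deeper, with a median of 18355 UMIs against 3660 in T and NK-like cells. Per cell they held 0.493 ITLN1 UMIs against 0.162, so their lower CPM does not mean fewer ITLN1 molecules per cell.

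Alveolar type 1-like cells, the flat cells of gas exchange, were the subset of epithelial-like cells in which ITLN1 most clearly exceeded this background. Their 268 cells were at 752 CPM. They formed 2 sub-clusters, 207 cells led by AGER, COL12A1 and SCEL and 61 cells led by LYZ, TNNC1 and DPT with AGER. Of their 905 ITLN1 UMIs, 570 came from 1 cell of asthma replicate 8, which also had 22 UMIs of MSLN, 16 of PRG4 and 174 of AGER and was called a doublet. Without that cell the level was 283 CPM (95% exact Poisson interval 253 to 315, counting error only). In control replicates 1, 2 and 3 it was 304 CPM (17 cells), 482 CPM (4 cells) and 109 CPM (3 cells). For asthma replicates 8, 10 and 11 it was 293 CPM (108 cells), 548 CPM (38 cells) and 108 CPM (97 cells). The alveolar type 1-like level was above that of T and NK-like cells in 6 of 6 libraries, though it rests on few cells in control.

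The difference from T and NK-like cells was also present at equal depth. At least 1 ITLN1 UMI was found in 53.0% of alveolar type 1-like cells (median 3822 UMIs) and in 13.8% of T and NK-like cells (median 3660 UMIs). After each cell was thinned to 1000 UMIs, which left out 20 and 139 shallower cells, the shares were 23.5% and 4.52%. By library the thinned share ran from 9.16% to 36.98% in alveolar type 1-like cells and from 1.32% to 9.83% in T and NK-like cells, and it was higher in the former in 6 of 6 libraries. Granulocyte-like cells came closer, with a thinned share of 13.2% after 801 of 1635 shallower cells were left out. In asthma replicate 8 they reached 26.2% against 29.1% in alveolar type 1-like cells, and in asthma replicate 11 8.13% against 10.4%. On the CPM scale the highest granulocyte-like library stood at 321 CPM. This was above the 293 CPM of alveolar type 1-like cells in asthma replicate 8 without the cell named above.

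Other mesothelial genes stood in differing proportions to ITLN1 in alveolar type 1-like cells. Without the cell named above, these cells held 335 ITLN1 UMIs with 3 of PRG4, 3 of PLA2G2A (a secreted phospholipase) and 0 of WT1. In mesothelial-like cells there were 24.7 ITLN1 UMIs for each PRG4 UMI, in alveolar type 1-like cells 112, and in T and NK-like cells 65.8. Conversely, GPM6A was at 213 CPM and UPK3B at 204 CPM in alveolar type 1-like cells, against 294 and 1359 CPM in mesothelial-like cells. For each MSLN UMI there were 16.2 ITLN1 UMIs in mesothelial-like cells, 10.8 in alveolar type 1-like cells and 12.2 in T and NK-like cells. In mesothelial-like cells the ratio was 353 for WT1 and 274 for BNC1. Their counts of 0 and 1 among 335 ITLN1 UMIs therefore decide nothing. The PRG4 and PLA2G2A counts are too small to fix their ratios closely. The part of free RNA or of attached mesothelial cells was not tested.

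Airway epithelial-like cells, which include the known goblet source, held little ITLN1. Basal-like cells were at 17.0 CPM (152 cells), and club and secretory-like cells at 24.1 CPM (98 cells). By library, basal-like cells ran from 0 to 68.3 CPM and lay below the T and NK-like cells of the same library in 6 of 6 libraries. Club and secretory-like cells ran from 5.25 to 93.5 CPM and lay below them in 5 of the 5 libraries that had any. Over the 284 airway epithelial-like cells, the level was 9.12, 40.8 and 5.49 CPM in control replicates 1, 2 and 3, where control replicate 2 had only 4 cells with 2 ITLN1 UMIs. Asthma replicates 8, 10 and 11 stood at 405, 67.0 and 9.85 CPM. With control replicate 2 set aside, on the CPM scale asthma replicate 8 alone stood clearly above its T and NK-like cells. Airway epithelial-like cells were also deeper, at a median of 10271 UMIs against 3660. Per cell they carried more ITLN1 in each library, 0.059 against 0.054 UMIs in control replicate 3 and 0.730 against 0.294 in asthma replicate 10. Thinned to 1000 UMIs, a larger share of them had an ITLN1 UMI only in control replicate 2 and asthma replicate 8. The shares were 2.72% against 2.21% in the former and 13.6% against 9.83% in the latter.

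The CPM excess of asthma replicate 8 came from a sub-cluster of 34 cells led by SCGB3A1, BPIFB1, VMO1, CLCA1 and TFF3, secretory genes. This sub-cluster also carried cilia genes and is called here by its leading genes. It had 99 ITLN1 UMIs in all, 81 of them in the 6 cells of asthma replicate 8. A single cell of that library held 70 ITLN1 UMIs of its 23177 together with 291 UMIs of CLCA1 and 169 of TFF3, both goblet cell genes. The next, of the same library, had 8 ITLN1 and 45 CLCA1 UMIs. The remaining cells with CLCA1 UMIs held 0 to 3 ITLN1 UMIs, among them a cell of asthma replicate 10 with 95 CLCA1 UMIs and 3 of ITLN1. Without the first cell, airway epithelial-like cells of asthma replicate 8 were at 101 CPM, close to the 97.3 CPM of T and NK-like cells.

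**Figure D5:**
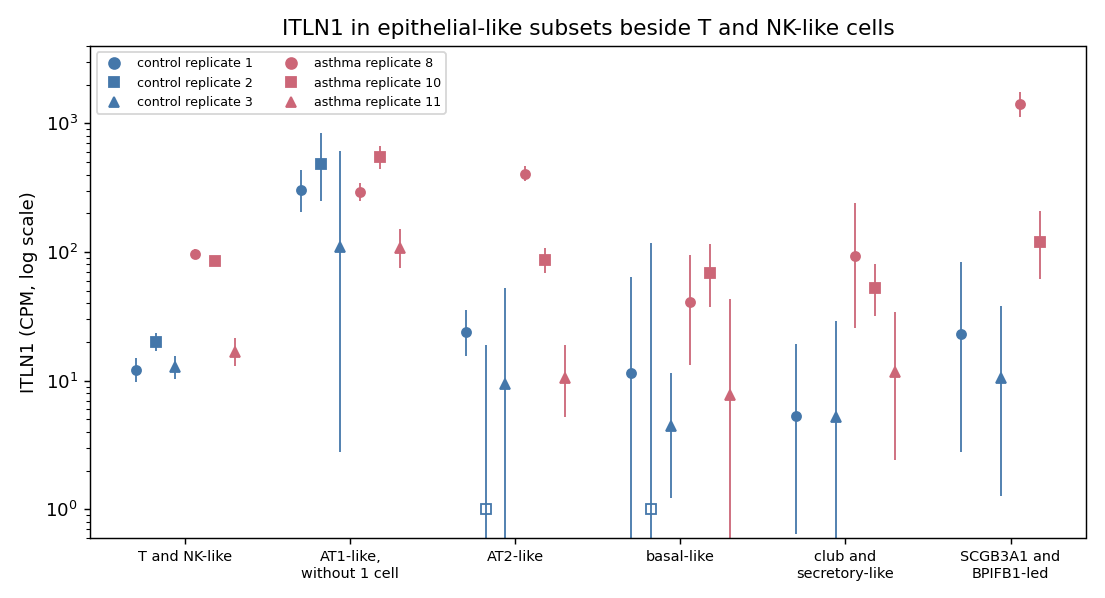
ITLN1 level (CPM, log axis) in T and NK-like cells and in epithelial-like subsets. Each point is 1 library with at least 3 cells of the set, lines are 95% exact Poisson intervals that cover counting error only, and open symbols at 1 CPM mark 0 UMIs. Alveolar type 1-like (AT1-like) cells, drawn without the 1 cell with most ITLN1, run from 108 to 548 CPM, and the last set rises to 1423 CPM in asthma replicate 8, where 1 cell held 70 of 81 UMIs.

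Alveolar type 2-like cells, the surfactant producers, were at 85.8 CPM (357 cells). A single cell of asthma replicate 8 held 180 of their 329 ITLN1 UMIs. Control replicates 1, 2 and 3 had 23.9, 0 and 9.36 CPM. For asthma replicates 8, 10 and 11 the level was 407, 86.8 and 10.5 CPM. Apart from asthma replicate 8 and control replicate 1, these CPM values were at or below those of T and NK-like cells, or within 2 CPM of them. Alveolar type 2-like cells were deeper, with a median of 10867 UMIs against 3660. Per cell they held more ITLN1 UMIs in each library except control replicate 2, with 0.976 against 0.294 in asthma replicate 10. Thinned to 1000 UMIs, the share of cells with a UMI was higher only in control replicate 1 (1.45% against 1.32%) and asthma replicate 8 (10.1% against 9.83%).

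Genes related to ITLN1 in function were then compared between asthma and control by edgeR's quasi-likelihood test on counts summed per library, and a call needed both a log2 fold change beyond 0.25 in size and a p below 0.05 after Benjamini-Hochberg adjustment. In mesothelial-like cells 2 of 5399 genes were called (0.037%), both higher in asthma and neither on the lists, and 199 (3.69%) had an unadjusted p under 0.05. None of the soluble lectins (3 tested), lactoferrin and iron genes (7), adipokines (4), goblet genes (2), type 2 response genes (4), mesothelial genes (15), immediate-early genes (14) or serosal secreted genes (12) was called. At an unadjusted p under 0.05 there were 3 genes: LGALS3BP, NR4A2 and PRG4, the last on both the mesothelial and the serosal list. DESeq2 called 5 genes, of which NR4A2 is on the immediate-early list. Every asthma library was above every control library for 1 lectin, 1 mesothelial and 1 immediate-early gene, beside 5.06% of all genes, and below for 1 type 2 response gene, beside 4.8%.

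The lists' medians ran from -0.15 to 0.39, and their distance from the median of all genes was not tested. The median log2 fold change was 0.03 for mesothelial genes, -0.15 for iron genes and -0.05 for type 2 response genes, beside 0.01 for all 5399 genes. The largest median of a list was that of the 3 lectins, 0.39. On TMM-scaled CPM, LGALS3BP averaged 75.7 ± 10.5 over control and 108 ± 17.9 over asthma libraries, and PRG4 averaged 3341 ± 717 and 2143 ± 451. Neither passed the test with edgeR (adjusted p = 0.9997 for each). ALOX15, a lipoxygenase that interleukins 4 and 13 induce in airway cells, averaged 920 ± 53.3 over control and 840 ± 86.8 over asthma libraries on the same scale.

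The make-up of epithelial-like cells differed between the libraries. Alveolar type 1-like cells numbered 17, 4 and 3 in the control libraries and 109, 38 and 97 in the asthma libraries, and airway epithelial-like cells 41, 4 and 118 against 21, 63 and 37. The part of this make-up in the values that follow was not tested. In epithelial-like cells no gene was called by edgeR among 9007 tested (0%), while 658 (7.31%) had an unadjusted p under 0.05 and DESeq2 called 5. Of the goblet genes 9 were tested, with a median log2 fold change of 0.25, and of the type 2 response genes 8, with a median of -0.04, beside -0.02 for all genes. The immediate-early genes had the lowest median of the lists, -0.80 over 20 tested, of which 4 (IER2, NR4A1, MYC and FOSB, all lower in asthma) had an unadjusted p under 0.05 and none was called. All asthma libraries lay above every control library for 1 goblet gene (FOXA2) and 2 of 8 mesothelial genes (UPK3B and GPM6A), beside 7.42% of all genes. These mesothelial genes stood at 206 and 211 CPM in alveolar type 1-like cells and under 5 CPM in alveolar type 2-like and airway epithelial-like cells. They lay below for 2 of 10 iron genes (TFRC and FTL), 1 type 2 response gene (IL4R), 1 mesothelial gene (KRT19) and 1 serosal gene (CXCL8), beside 6.49%. CLCA1 averaged 38.7 ± 58.4 over control and 125 ± 147 over asthma libraries, and TFF3 41.8 ± 50.1 and 84.9 ± 142, again on TMM-scaled CPM. Neither gene passed the test with edgeR (adjusted p = 0.701 for CLCA1 and 0.913 for TFF3).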

How the data were processed

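Lung cells were captured with 10x Genomics Single Cell 3′ version 3 chemistry, 1 library per monkey. The authors deposited UMI counts per gene and barcode, not normalized, made with Cell Ranger (version 2.1.1 in the submitters' processing notes, with a later version in the methods) on macFas6. The labels name no batch. The study's limits were applied (over 500 and under 5000 genes, at least 500 UMIs, at most 25% mitochondrial UMIs). This left slightly fewer cells than the study states.

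Counts were log-normalized (2000 variable genes without ITLN1, 10 components, 20 neighbours) and clustered with leidenalg 0.10.2 at resolution 0.8. A cluster was named from at least 3 markers at 2-fold or more. Sub-clusters with markers of another class were left out, by limits set after seeing the data. Doublets (Scrublet in scanpy) were kept in the main analysis. Sums per library with at least 10 cells were tested with edgeR 4.0.16 (TMM, filterByExpr), with DESeq2 1.42.0 as alternative, and the fit was tested on simulated data. With 3 monkeys per group, precision is limited by their number. Named genes were ITLN1, ITLN2, members of the lists and the 10 genes most like ITLN1. ITLN1, the gene lists and the tests were chosen with earlier results of these data known. Some genes are not reported here.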

Additional observations from a re-analysis of the deposited data

How the results depend on the processing

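No paired analysis was possible because control and asthma libraries share no replicate number. The asthma against control log2 ratio of ITLN1 in mesothelial-like cells moved by less than 1 SD of the libraries under all alternatives except mixed sub-clusters kept (0.21), and leaving out each library gave -0.19 to -0.00027. In whole libraries the range without each library was 1.04 to 2.18, in T and NK-like cells 1.77 to 2.61, and in airway epithelial-like cells, where control replicate 2 had too few cells, 2.39 to 5.01. In airway epithelial-like cells a mitochondrial maximum of 10% gave 2.15, with 2 asthma libraries left in place of 3. The limit and the lost library cannot be told apart there. Leaving out the 1 cell with most ITLN1, chosen after seeing the data, gave 3.02. The share of cells differed by 1.40 to 4.24 points without each library, higher in asthma each time, in designs too small for p to pass 0.05. The share of ITLN1 UMIs in mesothelial-like cells was 86.6% to 90.2% without each library, 98.2% with mixed sub-clusters kept, 48.9% of the UMIs of all barcodes, and 67.9% without sub-cluster 2, an alternative chosen after seeing the data.

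Against 2 genes called in mesothelial-like cells there were 0 with a mitochondrial maximum of 10%, 0 with at least 200 genes and no maximum, 0 with cells defined by 3 of 6 markers, 4 with mixed sub-clusters kept, 5 with DESeq2, 67 without a filter on low counts, and 0 to 4 without each library (0 without any 1 control library or asthma replicate 11). The 0 counts had 185 to 322 genes at an unadjusted p under 0.05. In epithelial-like cells DESeq2 called 5 and edgeR without a filter 2, against 0 otherwise, also without each library (0 to 0). With 3 libraries per group and 3 to 49 control cells in several sets, small changes of ITLN1 could have been missed. The size of change that could be detected was not measured.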

Other observations

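GHV, a gene of the growth hormone family, was called in mesothelial-like cells and was named after its values were seen. The control libraries held 1, 0 and 0 of its UMIs and the asthma libraries 168, 68 and 10. In CPM these were 2.42, 0 and 0 against 56.8, 32.8 and 46.9, and the groups did not overlap. The edgeR adjusted p was 0.0309. With at most 1 UMI in a control library, GHV passed the filter on low counts only through the asthma libraries. The p-value is therefore a description and supports no conclusion. Growth hormone genes have near-identical copies, so the assignment of these UMIs to GHV is uncertain. The call was lost without any 1 of the 3 control libraries, asthma replicate 8 or asthma replicate 11 (edgeR adjusted p = 0.0673 to 0.334). It was also lost with at least 200 genes and no maximum (0.0918) and with cells defined by 3 of 6 markers (0.0761), and GHV was not among the genes tested with a mitochondrial maximum of 10%. It was kept under the other 7 settings, DESeq2 and doublets left out among them. The fitted log2 fold change was 5.59 and ran from 4.97 to 8.79 where the call was lost, but with 1 UMI in control it depends on the prior count.

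Mesothelial-like cells also held much RNA of some genes on the serosal list, though others were low, with 0 UMIs of HAS2 and TFPI at 3.78 ± 6.60 CPM. AQP1, a water channel, was at 1369 ± 410 CPM (SD, n = 6). PLA2G2A, a secreted phospholipase, varied more between libraries, at 1921 ± 1467 CPM. Among the adipokine genes, CFD, the complement protease also known as adipsin, was at 900 ± 410 CPM, while ADIPOQ (adiponectin) had 2 UMIs and LEP (leptin) 0.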
